A study of Danio rerio with 2 samples.

Results

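Lysosomal proteases and glycosidases of the zebrafish larval gut were examined as a set of 8 genes, chosen by symbol out of the 27056 symbols counted. The set holds the endopeptidase genes ctsl.1, ctsbb and lgmn, the exopeptidase genes ctsh, ctsz and scpep1, the glycosidase gene fuca1.1, and grn1, which encodes a granulin peptide. All 8 were found in both libraries, each under 1 symbol. All 8 had their highest level in lysosome-rich enterocyte-like cells in both libraries. Within those cells ctsl.1 stood at 0.476 of its WT level in the il26KO library while the other 7 stayed within 1.5-fold. Each genotype had 1 library, and between the libraries 9.06% of 11025 genes in these cells were lower past 1.5-fold and 11.1% higher.

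Lysosomes break down proteins, sugar chains and lipids in an acidic lumen. Papain-like cathepsins and legumain cut proteins there, carboxypeptidases and aminopeptidases trim the fragments from their ends, and glycosidases remove sugars from glycoproteins and glycolipids. Lysosome-rich enterocytes are vacuolated absorptive cells of the larval fish gut that take up luminal protein by cubilin-, amnionless- and Dab2-dependent endocytosis and digest it inside the cell. The genes of many lysosomal enzymes are targets of the transcription factor TFEB.

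Guts were dissected from larvae at 5 days post-fertilization (dpf) and their cells were sequenced in droplets as 3′ transcript ends counted by unique molecular identifiers (UMIs), in 1 library of wild-type larvae (WT) and 1 of larvae deficient in il26 (il26KO). The il26KO line was made with CRISPR/Cas9 against the gene of the cytokine IL-26, and larvae of both groups came from clutchmate adults kept in separate tanks. Each library pooled 50 guts, dissociated in 5 tubes of 10, so tank, pool, library and genotype cannot be told apart. With 1 library per group no test was possible, and all intervals are 95% intervals that cover counting error only.

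The libraries held 125236138 and 122200924 UMIs. After filtering, 5122 WT and 3841 il26KO cells were kept, with medians of 10228.5 and 14204 UMIs per cell, and 9 barcodes were shared between the kept cells of both libraries. The targeted gene il26 had 1 UMI in the WT library and 0 in the il26KO library, where a count of 0 allows up to 3 UMIs, so its counts cannot check the labels. Barcodes with at most 100 UMIs, taken as empty droplets that hold free RNA, differed between the libraries, with pancreatic acinar markers summing to 3864 CPM (UMIs scaled to a total of 1000000) in WT against 218 in il26KO, and hepatocyte markers to 399 CPM against 2191. The cells fell into 30 clusters of 15 named classes.

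Lysosome-rich enterocyte-like cells numbered 502 in WT (9.80% of kept cells) and 373 in il26KO (9.71%). Listed lysosomal genes, the 8 members among them, had been left out of the genes used for clustering. The label rests on 7 markers fixed for this class. They also gave the cluster its name, so their levels describe the class and are no check of it. Cubn reached 407 CPM in WT and 258 in il26KO, dab2 804 and 837, amn 252 and 240.0, lrp2b 614 and 399.9, pllp 473 and 633, and epdl2 15970.3 and 14581. All 6 of these were above the other classes' medians and above the empty droplets, and 1 marker, lrp1ab, was not, with 6.198 and 4.335 CPM against 16.9 and 15.7 in empty droplets. Fabp6, an ileal bile acid binding protein gene, was also high, at 35969.6 and 38522.5 CPM. The summed macrophage markers were near 0, at 0.960 and 1.08 CPM. Neutrophil markers summed to 221 and 289 CPM, above the 144 and 163 CPM of the empty droplets. Leukocyte markers, at 375 and 396 CPM, and lymphoid markers, at 8.21 and 8.28, were below the empty droplets.

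The papain-like endopeptidase gene ctsl.1, encoding a cathepsin L, was by far the most abundant member. In lysosome-rich enterocyte-like cells it reached 28501 CPM in WT (28404 to 28599) and 13579 CPM in il26KO (13508 to 13651). It made up 68.9% of the UMIs of the 8 genes there in WT and 54.5% in il26KO. The 8 genes together took 4.14% of all UMIs of the class in WT and 2.49% in il26KO, and without ctsl.1 the other 7 took 1.29% and 1.14%. These are scaled counts of transcript ends, not divided by transcript length.

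Ctsbb, encoding a cathepsin B, an endopeptidase that can also trim dipeptides from carboxyl ends, had 3408 CPM in WT and 3315 in il26KO. Lgmn, the gene of legumain, which cuts after asparagine and matures other cathepsins, had 1691 and 1469 CPM. Over the empty droplets, ctsbb was 9.97-fold higher in WT and 10.7-fold in il26KO, and lgmn 7.84-fold and 7.65-fold.

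Of the exopeptidase genes, ctsh, whose product cathepsin H is an aminopeptidase, had 2542 CPM in WT and 1818 in il26KO. Ctsz, encoding a carboxypeptidase cathepsin, had 1339 and 1079.8 CPM. Scpep1, a serine carboxypeptidase gene, had 997 and 924 CPM. Ctsh, ctsz and scpep1 were all lower in il26KO by more than the counting intervals, but by less than 1.5-fold.

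The glycosidase gene fuca1.1, encoding an alpha-L-fucosidase, was the lowest member, with 491 CPM (478 to 504) and 481 CPM (467 to 494), intervals that overlapped. The granulin peptide gene grn1 had 2385 and 2268 CPM.

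**Figure D1:**
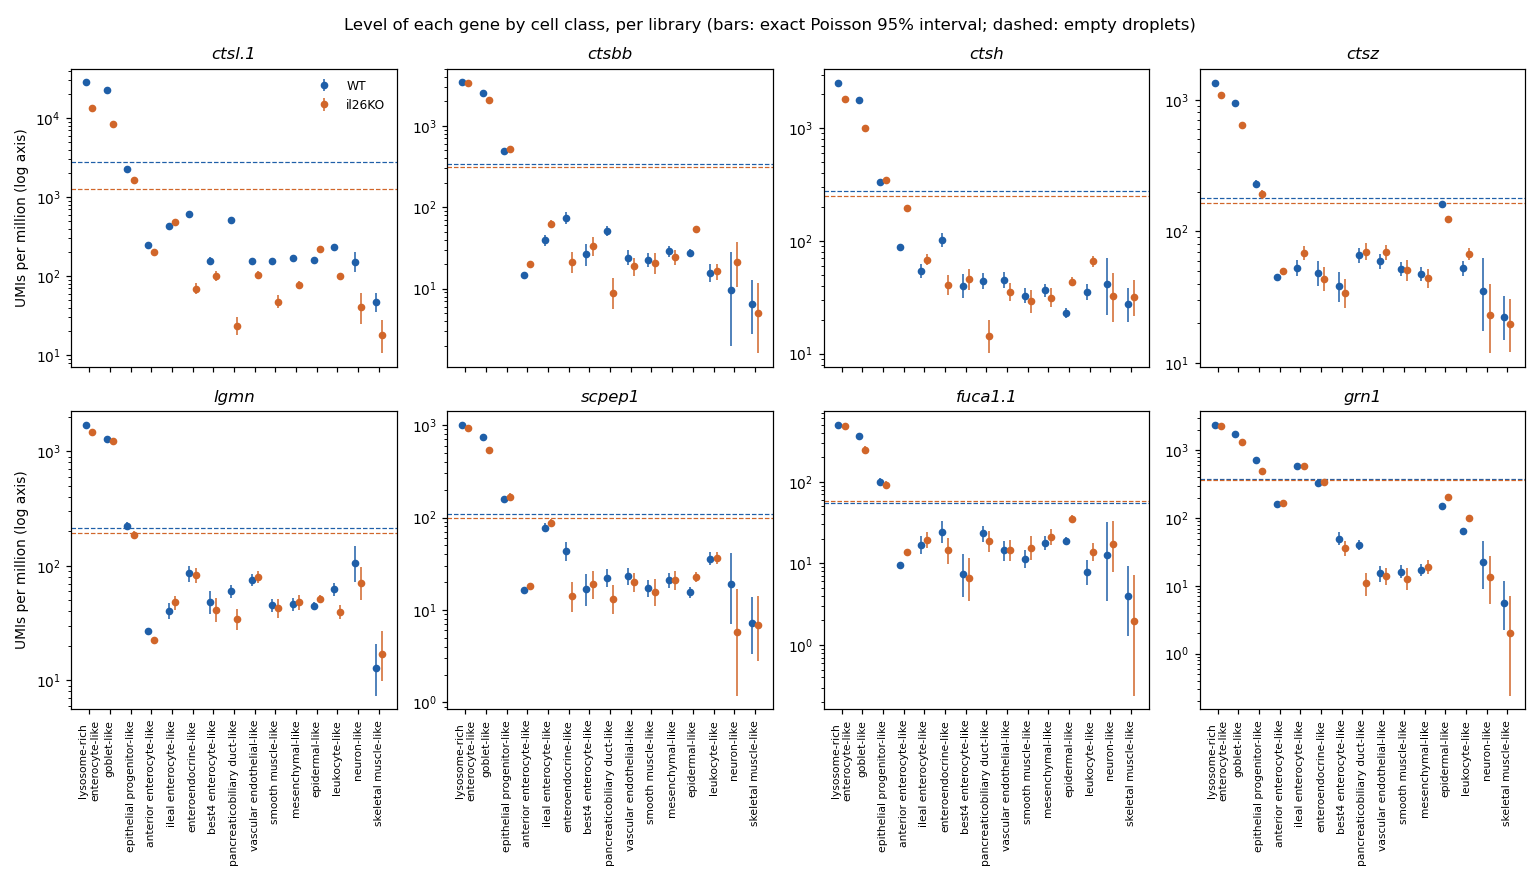
Level of each of the 8 genes in the 15 cell classes as CPM on a log axis, with 1 point per library (blue WT, orange il26KO), exact Poisson 95% intervals as bars, and dashed lines for the empty droplets. In every panel the lysosome-rich enterocyte-like class is highest in both libraries and the goblet-like class second.

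The leading classes were nearly shared by the members, while the order below them differed. In all 8 genes and both libraries the goblet-like class came second and, save for grn1 in il26KO, the epithelial progenitor-like class came next. The intervals of the first and second class did not overlap for any member. Against the median of the other 14 classes, the level in lysosome-rich enterocyte-like cells was highest for ctsl.1 (143-fold in WT, 135-fold in il26KO) and ctsbb (126-fold and 156-fold), and lowest for ctsz (25.8-fold and 18.3-fold). Of 16842 genes with at least 200 UMIs in kept cells, 463 (2.75%) were highest in this class in both libraries. Being highest in this class was known of some members when the set was chosen, so the 8 of 8 is a description.

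Outside the leading 3 classes the members were low. In the other 12 classes ctsl.1 ranged from 46.7 CPM (skeletal muscle-like) to 610 (enteroendocrine-like) in WT and from 17.8 to 479 in il26KO, against 2780.0 and 1271 CPM in the empty droplets. For 7 members none of these 12 classes exceeded the empty droplets in either library. The exception was grn1, which stood at 588 CPM in WT and 597 in il26KO in ileal enterocyte-like cells, above the 380.1 and 368 CPM of empty droplets. Free RNA within cells, estimated from acinar, hepatocyte and erythrocyte markers, was lower than the empty droplet level. Ctsh, ctsz, lgmn, scpep1 and fuca1.1 had intervals above that estimate in all 15 classes in WT and in 13 to 15 in il26KO. For ctsl.1, ctsbb and grn1 this held in 7 to 10 classes. In WT 10 of 14 and in il26KO 10 of 14 neighbouring pairs in the order of ctsbb had overlapping intervals. Most neighbouring ranks of ctsbb are thus not resolved. For ctsl.1 5 and 7 of 14 pairs overlapped, and for grn1 8 and 4.

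By share of all kept-cell UMIs, lysosome-rich enterocyte-like cells held between 58.2% (grn1) and 76.8% (ctsbb) of each member's UMIs in WT and between 57.4% (grn1) and 83.5% (ctsbb) in il26KO. The share of ctsh differed most between libraries, at 71.16% in WT and 59.08% in il26KO. In the same libraries anterior enterocyte-like cells held 7.66% and 27.5% of the ctsh UMIs. After each cell was thinned to 1000 UMIs, ctsl.1 was seen in 95.2% of lysosome-rich enterocyte-like cells in WT (500 cells, 2 shallower ones left out) and 94.6% in il26KO (370 cells, 3 left out). Over all kept cells it was seen in 28.3% and 23.7%.

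The goblet-like class, a single cluster of 196 WT and 83 il26KO cells led by agr2, a secretory cell gene, was mixed. Its 10 leading genes also held ctsl.1 and fabp6, and pancreatic acinar markers summed to 17001 CPM there in WT and 11334 in il26KO. Ctsl.1 stood at 22710 CPM in WT (22547 to 22873) and 8522 in il26KO (8366 to 8681), and ctsbb at 2519 and 2066. Of its cells thinned to 1000 UMIs, 26.2% in WT (20.1% to 33.0%) and 8.75% in il26KO (3.59% to 17.2%) had at least 10 ctsl.1 UMIs, against 66.2% and 42.2% of lysosome-rich enterocyte-like cells. At least 3 UMIs of cubn, amn and dab2 in 1000 were found in 14 of 191 goblet-like cells in WT and 1 of 80 in il26KO. In the other 177 WT cells agr2 reached 6801 CPM and ctsl.1 17450.0. The same limit was passed by 22.6% of lysosome-rich enterocyte-like cells in WT and 19.2% in il26KO, and the 177 cells also held epdl2 at 9141 CPM and fabp6 at 35437, so the limit does not separate the cell types. The part that cells of other types have in the level was not tested.

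The epithelial progenitor-like class joined a cluster with her15.1 and neurl1aa, of low depth, and a cluster led by chromatin and cycling genes such as hmgb2a and mki67. In the first, ctsl.1 had 506 CPM in WT and 90.3 in il26KO, below the empty droplets in both libraries. In the cycling cluster it had 3158 and 2439 CPM, above the empty droplets, and cubn 56.5 and 43.0. Among cells of the whole class thinned to 1000 UMIs, 4 of 234 in WT and 3 of 280 in il26KO had at least 3 UMIs of cubn, amn and dab2. Ctsl.1 stood at 15117 and 24203 CPM in these, and at 1362 and 1267 CPM in the others, against 2780.0 and 1271 CPM in the empty droplets.

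Between the libraries, the members were compared by the log2 ratio of CPM, il26KO over WT, and called at 1.5-fold as a rule of size. In lysosome-rich enterocyte-like cells 1 of 8 members was called lower and 0 higher, beside 9.06% called lower and 11.1% called higher of 11025 genes with at least 50 UMIs there. The member called was ctsl.1, with a log2 ratio of -1.07 (-1.08 to -1.06). The median over the members was -0.16, against 0.04 over all these genes. Counts of this size leave little counting error, but the spread between libraries of 1 genotype is unknown, so how often such a difference arises without a genotype effect was not measured.

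The other 7 ratios lay within 1.5-fold. Ctsh had -0.48 (-0.51 to -0.46), ctsz -0.31 (-0.35 to -0.27), lgmn -0.20 (-0.23 to -0.17) and scpep1 -0.11 (-0.15 to -0.07). Grn1 and ctsbb were near 0, at -0.07 and -0.04, and fuca1.1 had -0.03 (-0.09 to 0.03). All 8 ratios were below 0. Of the 4 papain-like cathepsins, ctsl.1, ctsh and ctsz were the 3 lowest ratios of the set and ctsbb was not among them.

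**Figure D2:**
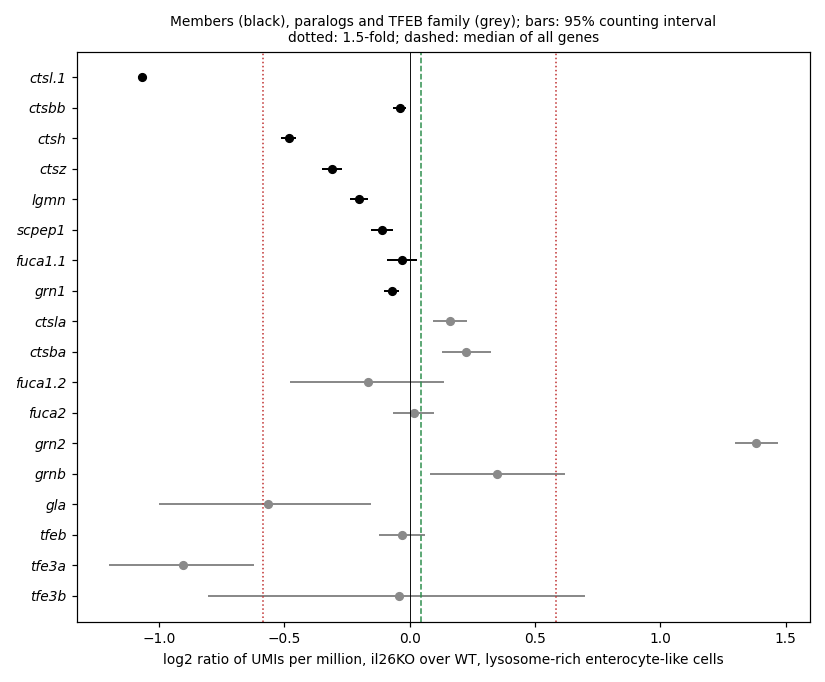
Log2 ratio of CPM, il26KO over WT, in lysosome-rich enterocyte-like cells for the 8 members (black) and for their paralogs and TFEB family genes with at least 50 UMIs (grey), with 95% counting intervals. Ctsl.1 lies at -1.07, left of the dotted 1.5-fold line, the other members lie between the lines, and grn2 lies at 1.38.

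The lower ctsl.1 was present in both sub-clusters into which a finer clustering split these cells. In the sub-cluster of higher depth (243 WT and 193 il26KO cells) ctsl.1 had 42064 CPM in WT and 21102 in il26KO, a log2 ratio of -0.995. In the other (253 and 178 cells, medians of 6865 and 15474 UMIs) it had 7848 and 4238 CPM, a ratio of -0.89. There the member median was 0.11 and ctsbb had 0.31, scpep1 0.23, fuca1.1 0.22 and grn1 0.19, so the small negative ratios of ctsbb, scpep1, fuca1.1 and grn1 in the whole class did not hold in its shallower cells, and that of ctsz, at 0.04, did not either. Among cells with 10000 to 40000 UMIs only (250 and 222 cells) ctsl.1 had -0.89.

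Ctsl.1 was also lower outside these cells. In goblet-like cells its ratio was -1.41 (-1.44 to -1.39) and that of ctsh -0.82 (-0.91 to -0.74), and these 2 of 8 members were called lower and 0 higher, beside 13.3% lower and 18.8% higher of 6518 genes. In the empty droplets the ctsl.1 ratio was -1.13 (-1.18 to -1.07), while the other members had ratios between -0.17 and 0.11 there. Over all kept cells it was -1.28, the 1 member called lower, with 0 higher, beside 7.67% lower and 8.46% higher of 21006 genes. In pancreaticobiliary duct-like, enteroendocrine-like, smooth muscle-like and leukocyte-like cells, where it was below the empty droplets, ctsl.1 had ratios of -4.41, -3.13, -1.71 and -1.20, and in ileal enterocyte-like and epidermal-like cells 0.16 and 0.44. The ctsl.1 limit used on thinned goblet-like cells was passed in WT by 2 of 171 pancreaticobiliary duct-like and 2 of 174 enteroendocrine-like cells. It was also passed in WT by 1 of 461 smooth muscle-like and 1 of 228 leukocyte-like cells. No il26KO cell of these classes passed it. In ileal enterocyte-like cells 7 of 291 passed it in WT and 1 of 226 in il26KO. The parts of such single cells and of free RNA in these ratios were not tested.

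Of the other classes, those with at least 2 members called were all classes in which no member exceeded the empty droplets. In enteroendocrine-like cells 5 of 8 were lower and 0 higher, beside 11.2% lower and 10.6% higher of 7118 genes. In pancreaticobiliary duct-like cells 6 were lower and 0 higher, beside 7.25% lower and 13.8% higher of 7927 genes. In epidermal-like cells 0 were lower and 3 higher, beside 6.07% lower and 16.3% higher of 13449 genes. In leukocyte-like cells 2 were lower and 3 higher, beside 13.4% lower and 11.3% higher of 8112 genes. The members thus had no shared direction across these low classes. In the enteroendocrine-like and pancreaticobiliary duct-like classes, 2 WT cells each and 0 il26KO cells passed the ctsl.1 limit named above. Leukocyte-like cells had 1 and 0 such cells, and epidermal-like cells 0 in both libraries. Whether the same few cells gave several of the calls in a class was not tested, so these calls cannot be taken as separate.

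Ctsh took another course in anterior enterocyte-like cells, lipid-absorbing cells of the gut. There it had 88.7 CPM in WT (85.7 to 91.9) and 197 in il26KO (193 to 201), a log2 ratio of 1.15 (1.09 to 1.21). It was the 1 of 8 members called higher in this class, with 0 lower, beside 16.1% higher and 5.21% lower of 13916 genes, and the all-gene median was 0.18. In the 3 clusters of the class the ratios were 0.96, 1.00 and 0.44, all below the ratio of the whole class. The clusters held 313, 238 and 311 cells in WT and 288, 334 and 228 in il26KO. Its level was below the 280 and 251 CPM of the empty droplets and above the 6.70 and 12.3 CPM estimated for free RNA in these cells from acinar, hepatocyte and erythrocyte markers. The parts of free RNA and of cluster make-up in the difference were not tested.

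Single lysosome-rich enterocyte-like cells differed widely in ctsl.1. The 10th, 50th and 90th percentiles over cells were 1875, 23038 and 66039 CPM in WT and 1398, 6443 and 42249 CPM in il26KO. The distance between libraries was thus greatest at the median, 3.58-fold, and less at the 10th (1.34-fold) and 90th percentiles (1.56-fold). Thinned to 1000 UMIs, the median cell had 23 ctsl.1 UMIs in WT and 7 in il26KO. No single cell held more than 3.53% of the ctsl.1 UMIs of its library's class.

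By the fold from the 10th to the 90th percentile, most other members were more even over cells. Grn1 spanned 909 to 3659 CPM from the 10th to the 90th percentile in WT (4.03-fold) and 967 to 3683 in il26KO (3.81-fold), and ctsh 7.81-fold and 7.44-fold. Lgmn was as uneven as ctsl.1, at 38.0-fold against 35.2-fold in WT and 31.9-fold against 30.2-fold in il26KO. Its medians were 1358 CPM in WT and 945 in il26KO. Fuca1.1 had a 10th percentile of 0 in both libraries and so no such fold. At the median cell the WT over il26KO ratio of the members other than ctsl.1 ran from 0.986 (fuca1.1) to 1.44 (lgmn).

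**Figure D3:**
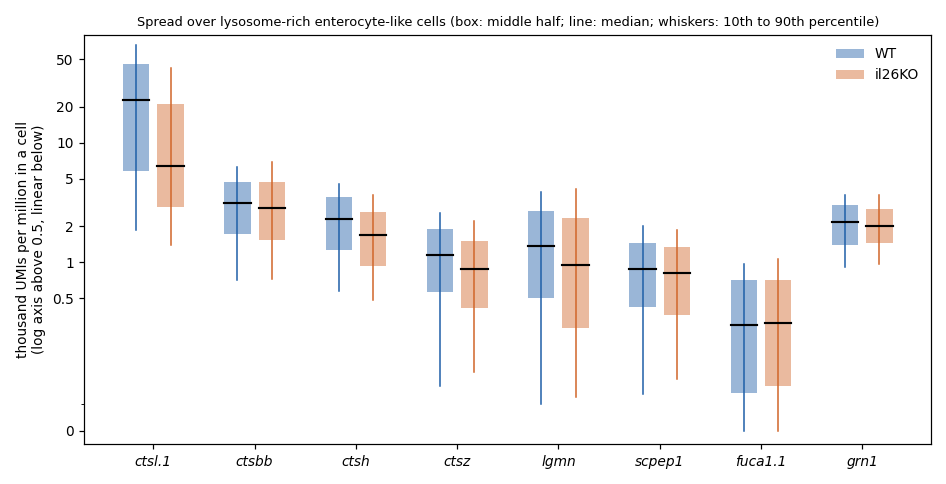
Spread of each gene over lysosome-rich enterocyte-like cells, in CPM of each cell divided by 1000, for WT (blue, 502 cells) and il26KO (orange, 373 cells), with the 25th to 75th percentile as a box, the median as a line and the 10th to 90th percentile as whiskers. The ctsl.1 medians, 23038 and 6443 CPM, lie apart, and the boxes of the other genes largely overlap.

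The members went together from cell to cell. Cells were thinned to 5000 UMIs for this, a depth chosen after seeing the data, which left 386 WT and 304 il26KO cells and took out 116 and 69. All 28 pairs had a positive Pearson r of log2(UMIs + 1) in both libraries, with a median of 0.57 in WT (0.31 to 0.81) and 0.57 in il26KO (0.25 to 0.76). The closest pair in WT was ctsl.1 with ctsbb at 0.81, and in il26KO ctsl.1 with lgmn at 0.76. Grn1 was the least tied, with a median r to the others of 0.45 and 0.36. With epdl2, a marker of the class, ctsl.1 had r of 0.72 and 0.68, and with agr2 of -0.09 and 0.06. Its r was 0.44 and 0.33 with cubn, 0.26 and 0.15 with dab2, and 0.26 and 0.29 with amn. With 2 lysosomal genes outside the set it was 0.31 and 0.35 (ctsd) and 0.22 and 0.26 (psap). Ctsd and psap had means of only 1.46 and 2.04 UMIs per thinned cell in WT. Cubn, dab2 and amn were also low, at 2.28, 4.12 and 1.27, while epdl2 had 80.5. The sizes of these r can therefore not be compared directly. Cells of 1 library share their source, and the shallow and deep cells of the class differ in all members, so these values are descriptions.

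**Figure D4:**
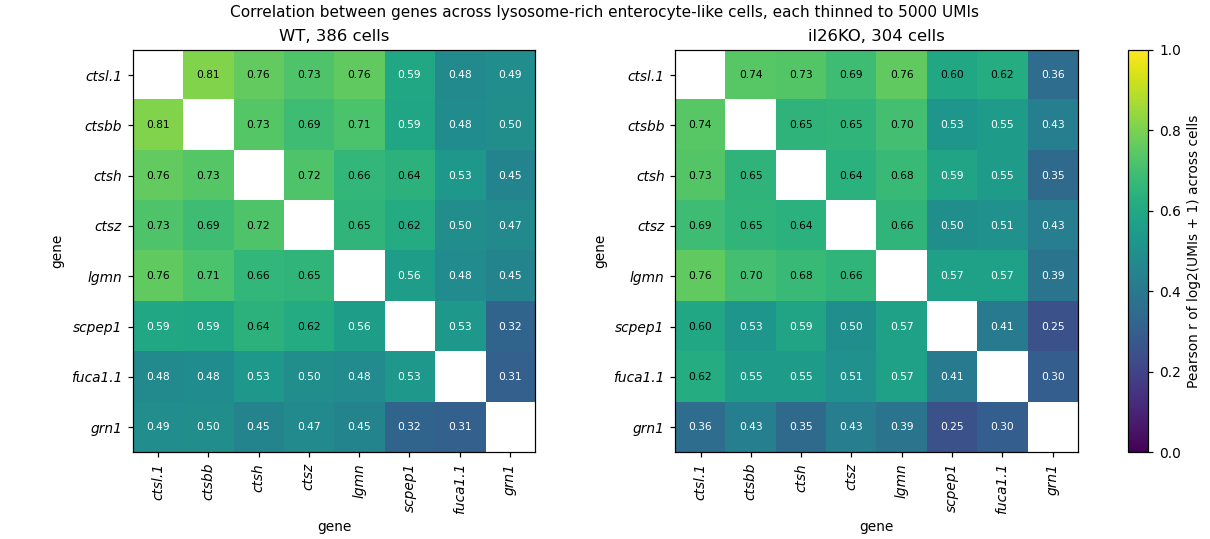
Pearson r between genes across lysosome-rich enterocyte-like cells thinned to 5000 UMIs, WT at left and il26KO at right, with colour from 0 to 1 and the value in each cell of the grid. All 28 pairs are positive in both, and the grn1 row is the lowest.

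Across classes the members also had like profiles. Over 28 points, 14 classes with at least 20 cells in each of the libraries, the r of log2(CPM + 10) between pairs of members had a median of 0.92 and ran from 0.71 to 0.98. These points share libraries and depth. Of genes outside the lists, the 8 most like the mean member profile were si:ch211-122f10.4, si:ch73-338a16.3, rab32b, ifi30, agtrap, prss16, tdo2b and snx2, with r from 0.98 to 0.96. Ifi30 encodes a lysosomal thiol reductase and stood at 1243 CPM in WT and 1168 in il26KO in lysosome-rich enterocyte-like cells. Rab32b, a small GTPase gene of lysosome-related organelles, had 97.9 and 101 CPM, prss16, a serine protease gene, 307 and 311, and tdo2b, a tryptophan dioxygenase gene, 694 and 557.

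The paralogs did not share the pattern as a group. Of 10 listed paralogs, 8 had at least 200 UMIs in kept cells and 3 of these were highest in lysosome-rich enterocyte-like cells in both libraries. Ctsla, the other cathepsin L gene with many UMIs, had 351 CPM in WT and 392 in il26KO there, 1.16-fold and 1.19-fold over the median of the other classes, and was highest in pancreaticobiliary duct-like cells at 559.8 and 548. Ctslb had 0 UMIs in the class and ctsll 3 and 1. Ctsba had 159 and 186 CPM, 2.59-fold and 2.75-fold over the other classes, where ctsbb reached over 100-fold. Gla, an alpha-galactosidase gene, had 11.4 and 7.68 CPM. It is counted with the paralogs throughout, although it is not a paralog of any of the 8 genes.

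Fucosidase and granulin paralogs differed from each other as well. Fuca2 had 248 and 250.4 CPM and fuca1.2 18.1 and 16.1 CPM, although fuca1.1 and fuca1.2 are neighbours in the RefSeq annotation, in which all 18 members and paralogs were found by symbol or synonym. Grn2 had 155 CPM in WT and 406 in il26KO, a log2 ratio of 1.38 (1.304 to 1.465), where grn1 had -0.07. Grn1 and grn2 also lie next to each other, under the RefSeq names grna.1 and grna.2. How reads shared by such copies were counted was not tested, so each level is uncertain to that extent. Grn2 was higher in il26KO in goblet-like, ileal enterocyte-like and anterior enterocyte-like cells too, with ratios of 1.05, 1.11 and 1.83. Grna and grnb were low in the class, at 1.22 and 1.58 CPM and at 19.5 and 24.8 CPM.

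Of the TFEB family, tfeb itself had 201 CPM in WT and 197 in il26KO in lysosome-rich enterocyte-like cells, its highest class in both, 18.3-fold and 13.03-fold over the median of the others, with a ratio of -0.03 (-0.12 to 0.06). Tfe3a had 28.28 and 15.07 CPM, a ratio of -0.90 (-1.19 to -0.63), and was highest in enteroendocrine-like cells. Tfec had 0 UMIs in the class and was highest in leukocyte-like cells, at 21.6 and 10.4 CPM. Tfe3b, mitfa and mitfb had between 0.436 and 3.06 CPM.

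In the wider lysosomal lists the same class often led, though less evenly. It was the highest class in both libraries for 7 of 14 other lysosomal proteases with at least 200 UMIs, 9 of 15 glycosidases, 6 of 14 lipases, sulfatases, phosphatases and nucleases, 3 of 19 membrane proteins, 5 of 21 subunits of the proton pump (v-ATPase) that acidifies the lysosome, and 1 of 8 genes of mannose phosphate and sortilin delivery. The same held for 4 of 7 saposin, granulin and lipid transfer genes, 1 of 4 cystatins and 1 of 4 TFEB family genes. Over all genes with at least 200 UMIs it held for 463 of 16842 (2.75%). Of 8 protein endocytosis genes 5 were highest there. Among these 8, cubn, amn, dab2, lrp2b, lrp1ab and pllp are also markers that named the class. The count and the median fold of this list thus follow in part from the naming. The median fold over the other classes was 42.03 for the members, 4.22 for other proteases, 4.15 for other glycosidases, 3.92 for the proton pump, 30.9 for protein endocytosis and 0.789 for all genes.

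Between libraries, 11.1% of all genes tested in lysosome-rich enterocyte-like cells were called higher in il26KO and 9.06% lower, and the wider lists are too short to be read against these shares. Of 13 other proteases 2 were higher and 0 lower, of 13 other glycosidases 0 and 1, of 14 lipases, sulfatases, phosphatases and nucleases 0 and 1, and of 17 membrane genes 1 and 2. Of 18 proton pump genes 1 was higher and 0 lower with a list median of 0.23, of 7 protein endocytosis genes 0 and 2, and of 7 delivery genes 0 and 0. Of 7 paralogs of the members 1 was higher and 0 lower, of 6 saposin, granulin and lipid transfer genes 1 and 1, of 4 cystatins 1 and 1, and of 3 genes of the TFEB family 0 and 1. The highest levels were those of npc2, a cholesterol carrier of the lysosome lumen, at 1683 CPM in WT and 1069 in il26KO (-0.66), cpvl, a carboxypeptidase gene, at 829 and 778, atp6v0ca, a proton pump subunit gene, at 817 and 782, dab2, and cst14a.2, a cystatin gene, at 612 and 689. Extreme ratios were named among genes with at least 100 UMIs in lysosome-rich enterocyte-like cells over both libraries, while the counts above used at least 50. The lowest ratios were those of tfe3a, of cst14a.1 (-0.76, 365 and 190 UMIs) and of slc17a5, the sialic acid exporter gene (-0.68, 242 and 133 UMIs). The highest were ctsk, a cathepsin K gene (3.97, 7 and 110 UMIs), grn2 and lamp1a (0.65, 43 and 60 UMIs). Below the limit of 100 UMIs, ctss2.2 had a ratio of 4.51 (3 and 80 UMIs) and arsa of -0.71 (49 and 26 UMIs). Ctsk was below the median of the other classes in both libraries, at 0.61 against 3.44 CPM in WT and 10.8 against 12.2 in il26KO. The endocytic receptor genes cubn and lrp2b had ratios of -0.66 and -0.62, and amn and dab2 of -0.07 and 0.06.

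**Figure D5:**
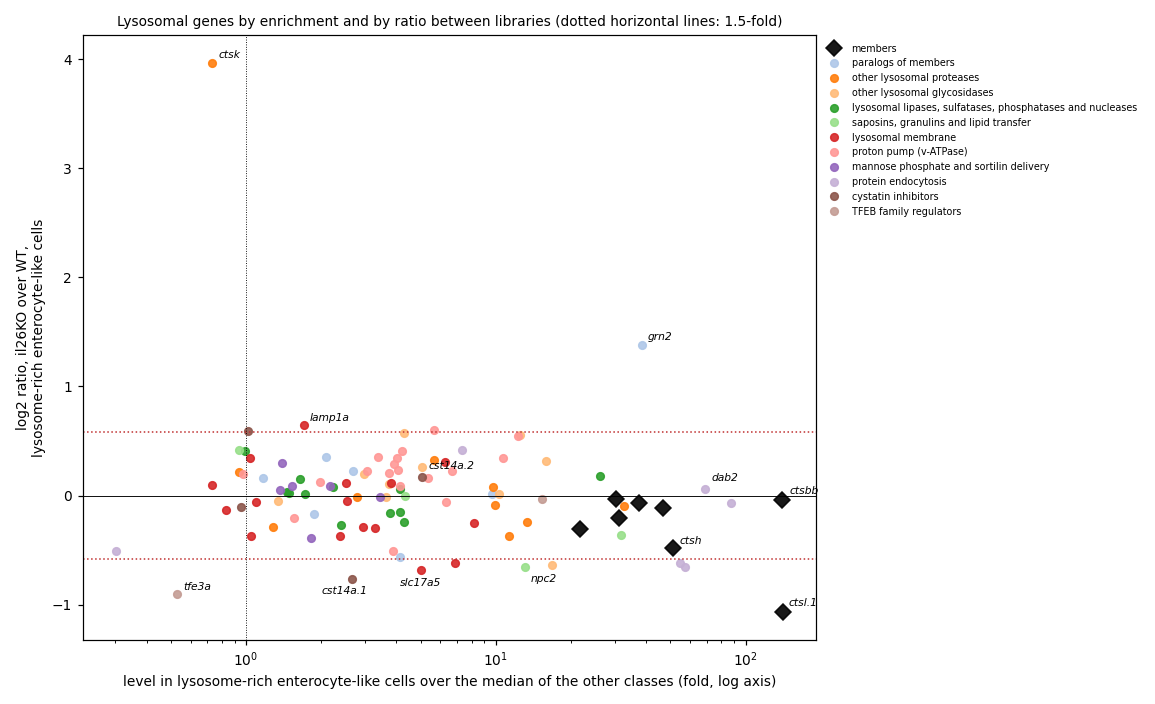
Lysosomal genes with at least 200 UMIs in kept cells and 100 in lysosome-rich enterocyte-like cells, by their level in these cells over the median of the other classes (log axis) and by their log2 ratio, il26KO over WT, with members as black diamonds. Ctsl.1, at -1.07, and ctsbb, at -0.04, lie together at the far right and apart in height.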

How the data were processed

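The authors deposited raw UMI counts for every barcode, for which the file headers name Cell Ranger 7.1.0, and the submitters' processing notes name danRer11. Features with 1 symbol in common were added together. Barcodes with at least 500 genes and at most 25% mitochondrial UMIs were kept. Scrublet (scanpy 1.11.5, Python 3.11.15) called 1 WT and 2 il26KO doublets by its automatic threshold and so did not work, and the 229 and 126 highest scores were removed instead, at 0.8% per 1000 cells.

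Clusters were made in Seurat 5.3.0 (R 4.3.3) from 2000 variable genes without the lysosomal lists, after CCA integration over 30 dimensions, at resolution 0.8. A cluster took the name of the marker list whose genes stood highest in it on average (log2 fold against all remaining clusters), given at least 3 markers that were at least 2-fold higher and detected in at least 10% of its cells. All names mean cells like that type.

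UMIs were summed per library and class and given as CPM with exact Poisson intervals, shares of cells with exact binomial intervals, and ratios with a pseudocount of 1 UMI. Genes with at least 50 UMIs in a class entered the background. Depth ranged over classes, and cells were thinned to 1000 UMIs where shares were compared. The text names all members, paralogs and TFEB family genes, the 3 highest and 3 lowest ratios and 5 highest levels of the wider lists (at least 100 UMIs), and the 8 genes most like the members. Of 9 genes chosen, 1 is not reported here. The members and lists were chosen with earlier results of these data known. Calculations were tested on simulated data. RefSeq of another assembly was used for names and neighbours only. Filters, clustering, scaling, weighting and the call were varied.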

Additional observations from a re-analysis of the deposited data

How the results depend on the processing

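In all 21 alternatives 1 member, ctsl.1, was lower past 1.5-fold (past 2-fold where that was the call) and 0 were higher, with ctsl.1 between -1.11 and -0.76. Beside this, 3.11% to 15.5% of all genes tested were called lower and 3.44% to 19.0% higher. The 2-fold call and a background of genes with at least 10 UMIs reuse the same counts, so the member ratios could not change there. The median ratio of the members, -0.16 as reported, was -0.199 without integration, -0.1997 with median-of-ratios scaling, -0.10 with cells weighted equally, -0.0093 with cells thinned to 1000 UMIs, and -0.099 in cells with 10000 to 40000 UMIs. The median over all genes tested, 0.04 as reported, was 0.07, 0.0010, 0.10, 0.13 and 0.09 in these settings, in the same order. After thinning it rested on only 1563 genes. In the lower-depth sub-cluster the member median turned to 0.11, against 0.03 over all genes. There ctsbb was at 0.31, ctsz at 0.036, scpep1 at 0.23 and grn1 at 0.19. Ctsbb turned to 0.0040 with equal weighting, and scpep1 to 0.029 and grn1 to 0.011 after thinning. Fuca1.1, at -0.03 as reported, was above 0 in 5 of 21 alternatives, up to 0.22 in the lower-depth sub-cluster. The cause of these shifts was not tested.

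The median share of member UMIs in lysosome-rich enterocyte-like cells, 70.5% in WT and 72.4% in il26KO, was 68.8% and 64.9% with at least 300 genes, 69.7% and 70.3% with at least 1000 genes, 82.1% and 72.9% with at most 10% mitochondrial UMIs, 71.7% and 73.5% without a mitochondrial filter, 71.8% and 73.6% with doublets kept, 68.7% and 68.2% without integration, 74.4% and 76.4% with the listed genes in the clustering, and 84.7% and 77.4% at resolution 0.4. The order of the libraries thus depended on these choices.

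The sub-clusters, the 10000 to 40000 UMI range, the 5000 UMI thinning and the splits of goblet-like and progenitor-like cells were chosen after seeing the data. No paired analysis was possible because each group has 1 library, and for the same reason no library was left out. The planned promoter motif search was not run, since no promoter sequence was used here.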
